A study of Rattus norvegicus with 2 samples.

Results

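The 9 genes described here encode the enzymes that make and break down catecholamines in the rat adrenal medulla. Th, Ddc, Dbh and Pnmt encode the steps of epinephrine synthesis, Gch1, Pts and Qdpr make and regenerate the cofactor tetrahydrobiopterin, and Maoa and Maob encode the monoamine oxidases. They were chosen by function, with earlier results of these data known. Every probe set that the array annotation gives to 1 of these symbols alone was taken. That rule took 11 of 31042 probe sets, or 9 of the 14217 genes named in this way, with 2 probe sets each for Ddc and Gch1 and 1 for every other gene. All 4 synthesis genes and all 3 tetrahydrobiopterin genes had a higher deposited value after recurrent hypoglycemia than after saline, by 0.23 to 0.95 on the log2 scale. Both oxidases had a lower one. Of all genes, 56.1% had a higher value. None of the 9 genes reached a 2-fold difference in its brighter or only probe set, where 11.5% of all genes were higher and 9.62% lower by that much. The second probe set of Gch1 was 2-fold or more higher, as were 10.4% of all probe sets. Bright probe sets in general were higher in the insulin array. Among the 1000 probe sets nearest in level, the difference of Th exceeded that of 50.3%, and the difference of Pnmt that of 29.8%. For Dbh the share was 82.6%, and for the Gch1 probe sets 83.0% and 95%. The second Ddc probe set, at 79.8%, and Pts, at 76.3%, were nearly as high as Dbh. After adjustment for level, Dbh and the brighter Gch1 probe set differed by less than the SD between probe sets of the same gene.

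Chromaffin cells build epinephrine from tyrosine. Tyrosine hydroxylase (Th) forms dopa and is the rate-limiting enzyme, aromatic amino acid decarboxylase (Ddc) forms dopamine, dopamine beta-hydroxylase (Dbh) forms norepinephrine inside the chromaffin granule, and phenylethanolamine N-methyltransferase (Pnmt) methylates norepinephrine to epinephrine. Tyrosine hydroxylase works only with tetrahydrobiopterin, which is made from GTP by GTP cyclohydrolase (Gch1) and by 6-pyruvoyl-tetrahydropterin synthase (Pts) and later enzymes, and is recycled by dihydropteridine reductase (Qdpr). Catecholamine that leaks from the granules is deaminated by monoamine oxidases.

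The study asked how antecedent hypoglycemia alters the adrenal medulla, since rats with recurrent episodes release less epinephrine when glucose falls again. Adult male Sprague-Dawley rats with vascular catheters were given insulin at 2 IU/kg (2RH) or saline (2RS) by intraperitoneal injection over 3 days, fasted overnight and clamped at low glucose with an insulin infusion on day 4, so both groups were hypoglycemic when tissue was taken. The 2RH30 and 2RS30 groups were sampled 30 min after the glucose target, 40 to 50 mg/dL, was reached, and RNA of 6 rats was pooled onto 1 Affymetrix array in each group. No animal without a clamp was analysed here, and neither were the other times. With a single pooled array on either side, no difference has a replicate check or a p-value, the spread between animals is not known, and every value below describes these 2 pools. In such bulk RNA, fewer cells of a type and less RNA in each cell cannot be told apart.

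The 2 arrays differed in ways that touch these genes. The SD over all probe sets was 1.28 in 2RS30 and 1.57 in 2RH30, the bioB hybridization control had a mean difference of -3.35 over its 3 probe sets and the cre control one of -0.51 over 2, and the difference (2RH30 minus 2RS30, log2, as throughout) depended on level, with a median of -0.38 in the lowest of 20 level bins and of 0.49 in the highest. Each difference is therefore also given level-adjusted, that is, after a lowess curve of difference on mean level was subtracted. It is also set beside the 1000 probe sets nearest in mean level. A percentile of 80 means that 80% of those neighbours had a smaller difference, and it describes these arrays without being a p-value. As a second yardstick, level-adjusted differences from probe sets of the same gene had an SD of 0.85 at mean levels of 5 to 7 (1977 genes) and 0.64 at higher levels (550 genes). Probe sets under the median of both arrays are called dim.

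Promoter sequence is shown for Th, Dbh and Gch1, which are the rate-limiting enzyme and the 2 genes with the largest deposited differences, because transcription of catecholamine enzymes is known to respond to cAMP through the cAMP response element, TGACGTCA, or its 5-base core, TGACG. Within the 250 bases before the RefSeq start, on either strand, the full element is in 1.59% of 33469 rat promoters and the core, which the full element contains, in 18.2%. Of the 8 member genes with a promoter sequence, which have 10 promoters, Th has the full element, and Th, Dbh and Gch1 have the core. Pnmt had no promoter sequence and was not searched. The percentages above count promoters and not genes. The stretches below are from the GRCr8 assembly, run 5′ to 3′ on the strand of the gene, and have the matched letters in capitals; CGTCA is the core on the opposite strand. A match is a description of the letters, and no binding was measured. Dbh and Gch1 were chosen for display by their differences on these same arrays, and a link between match and difference was not tested.
Th, chr1:207508250-207508317, minus strand: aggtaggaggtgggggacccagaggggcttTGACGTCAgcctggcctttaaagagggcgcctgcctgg
Dbh, chr3:30886124-30886188, plus strand: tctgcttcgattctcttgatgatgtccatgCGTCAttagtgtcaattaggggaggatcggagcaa
Gch1, chr15:22917484-22917548, minus strand: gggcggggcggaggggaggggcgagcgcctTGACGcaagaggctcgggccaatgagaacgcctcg
The element of Th begins 69 bases before the RefSeq start and the core of Gch1 106 bases before it. The core shown for Dbh begins 174 bases before the start, and a further copy begins 234 bases before it.

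Among the synthesis enzymes, the deposited difference of Dbh was the largest. That of Pnmt was below that of Th, and Ddc lay below or above Th according to its probe set. Th (probe set 1387075_at) read 11.45 in 2RS30 against 11.96 in 2RH30, a difference of 0.51, which is a ratio of 1.42. The reading was above 99.9% of the probe sets on both arrays. The neighbours of Th had a median difference of 0.51, so Th stood at percentile 50.3, and its level-adjusted difference was -0.08. Few probe sets are this bright, and its 1000 neighbours reach down to a mean level of 8.35; among the 100 nearest it stood at percentile 59.0. The higher value of Th in 2RH30 was thus no larger than that of other bright probe sets.

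Pnmt (1371054_at), the enzyme that makes epinephrine, read 11.35 in 2RS30 against 11.67 in 2RH30, a difference of 0.31 and a ratio of 1.24. It stood at percentile 29.8 of its neighbours, and level-adjusted it was -0.27, so its sign turned with the adjustment. The deposited differences of Pnmt and Th were 0.20 apart on the log2 scale, well inside the probe set SD of 0.64.

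Dbh (1370564_at), the granule enzyme that makes norepinephrine, read 8.22 in 2RS30 and 9.17 in 2RH30. Its difference of 0.95, a ratio of 1.94, was the largest among the 9 genes in their brighter or only probe set, and lay just under 2-fold. It stood at percentile 82.6, inside the range from -0.25 to 1.40 that holds its neighbours between the 5th and 95th percentiles, and its level-adjusted difference was 0.45. That is less than the SD of 0.64 between probe sets of the same gene, pooled over all mean levels of 7 or more. It is also less than the SD of 0.51 of the differences of its neighbours. The level-adjusted difference of Dbh exceeded that of Th by 0.53 and that of Pnmt by 0.72. The SD of 0.64 is that of a single probe set, and a gap between 2 probe sets varies more. It may also be too large for the brightest probe sets, since the neighbours of Th and of Pnmt had an SD of 0.42. Whether either gap is larger than the scatter was not tested.

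Ddc, the decarboxylase, was read by 2 probe sets that gave unlike sizes. The brighter (1368064_a_at) was 6.82 in 2RS30 against 7.05 in 2RH30, a difference of 0.23 at percentile 48.3, or -0.08 level-adjusted. The other (1375317_at) was 5.11 in 2RS30 against 5.91 in 2RH30, a difference of 0.80 at percentile 79.8, or 0.73 level-adjusted. Level-adjusted, the 2 probe sets of this gene were 0.81 apart, so the size and the adjusted sign for Ddc depend on which one is read.

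**Figure D1:**
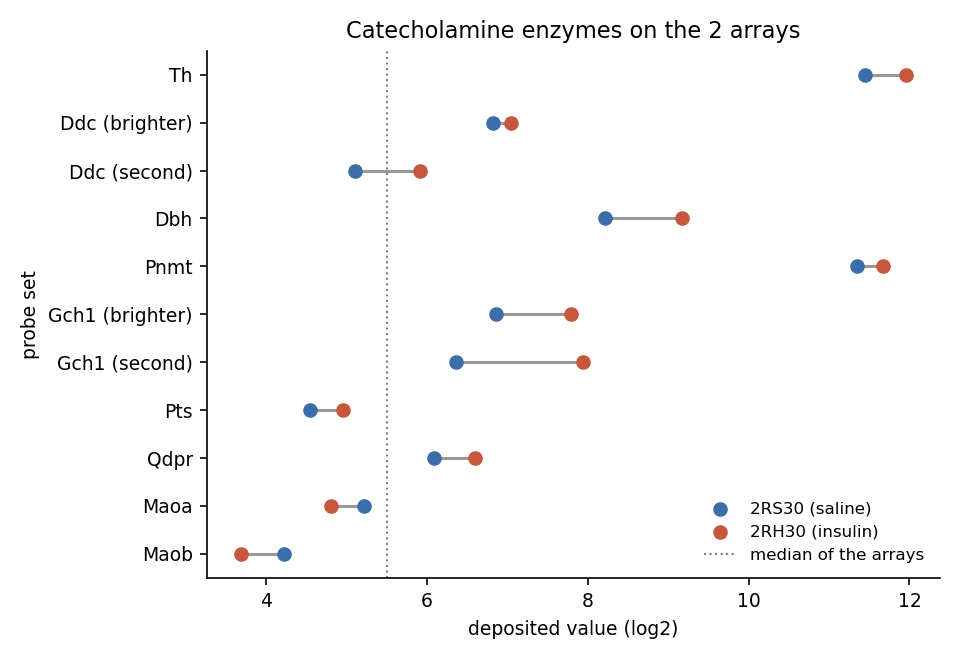
Deposited value (log2, horizontal axis) of each of the 11 probe sets of the catecholamine enzymes (vertical axis) in 2RS30 (blue) and 2RH30 (red), 1 pooled array each, with no error bars because there are no replicates. The 9 probe sets of synthesis and tetrahydrobiopterin enzymes have the red point on the right, and those of Maoa and Maob have it on the left; the dotted line is the median of the arrays.

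Of the tetrahydrobiopterin enzymes, Gch1 had the largest deposited difference, and its 2 probe sets went the same way. Gch1 encodes the enzyme that commits GTP to cofactor synthesis. Its brighter probe set (1368503_at) read 6.86 in 2RS30 against 7.80 in 2RH30, a difference of 0.93, or a ratio of 1.91. The second (1387221_at) read 6.36 in 2RS30 against 7.94 in 2RH30, a difference of 1.58, or a ratio of 2.98. They stood at percentiles 83.0 and 95 of their neighbours, and were 0.57 and 1.23 level-adjusted. The second probe set of Gch1 was the only one of the 11 past 2-fold, and its level-adjusted difference was larger than the SD of 0.64 between probe sets at its level, which that of the brighter one was not. The 2 deposited differences were 0.64 apart.

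Qdpr (1367695_at), which recycles the cofactor after each round of hydroxylation, read 6.09 in 2RS30 against 6.60 in 2RH30, a difference of 0.52 at percentile 65.9. Level-adjusted it was 0.30, under the SD of 0.85 at its level. Pts (1369304_at), the synthase that follows Gch1, was dim, at 4.55 in 2RS30 and 4.96 in 2RH30. Its difference of 0.41 stood at percentile 76.3 and was 0.61 level-adjusted, more than the 0.57 of the brighter Gch1 probe set and less than the 1.23 of the second. All 3 genes of the cofactor thus kept a positive difference after the adjustment, where 51.2% of all genes were positive. Of the 4 synthesis genes 1 did, Dbh, with Ddc read from its brighter probe set. The second probe set of Ddc was at 0.73.

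The oxidases were dim and had the only negative deposited differences. Maoa (1370678_s_at), which prefers serotonin and norepinephrine as substrates, read 5.22 in 2RS30 against 4.80 in 2RH30, a difference of -0.42 at percentile 29.5, or -0.31 level-adjusted. Maob (1368514_at) read 4.22 in 2RS30 against 3.69 in 2RH30, a difference of -0.53 at percentile 44.3, or -0.09 level-adjusted. The median difference of the neighbours of Maob was -0.44, and 24.2% of them were lower by 2-fold or more, so a value of this size is common among probe sets this dim. The reading of Maob was above 14.3% of the probe sets in 2RS30 and 13.0% in 2RH30.

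**Figure D2:**
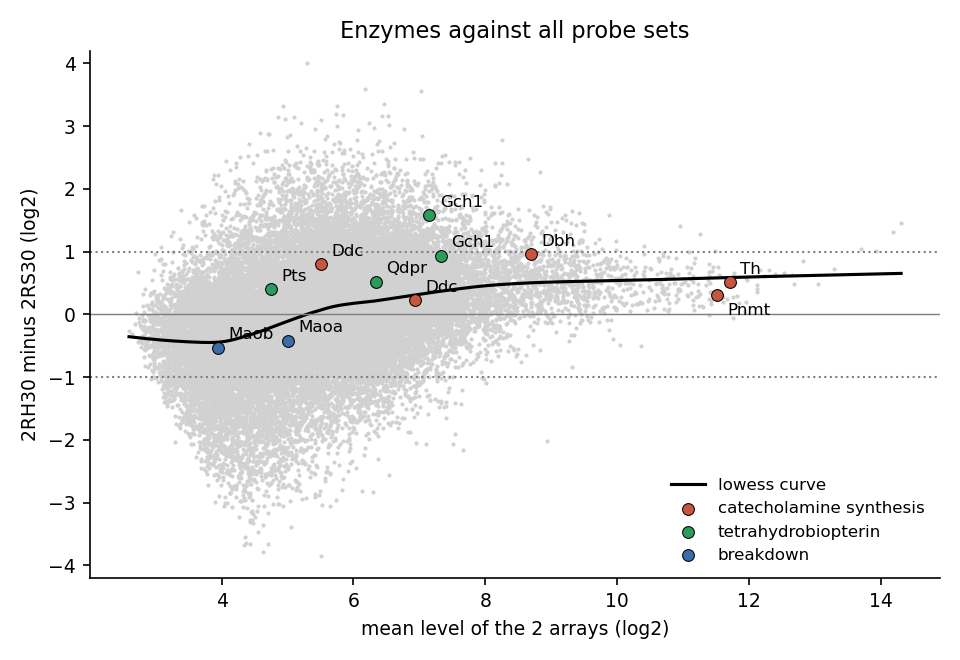
Vertical axis, log2 value in 2RH30 minus that in 2RS30; horizontal axis, log2 level averaged over both arrays. Shown are all 31042 probe sets (grey) and the catecholamine enzymes (coloured by role), with the lowess curve in black and dotted lines at 2-fold. Th and Ddc (brighter probe set) lie close to the curve, Pnmt lies under it, Dbh and both Gch1 probe sets lie above it, and the second Gch1 probe set, at 1.58, is the one above the dotted line.

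In counts, 1 of the 11 probe sets was 2-fold or more higher in 2RH30 and 0 were lower, where 10.4% of all probe sets were higher and 12.1% lower by that much. Level-adjusted the counts were again 1 and 0, against 8.99% and 10.2% of all probe sets. With each gene read from its brighter probe set, 0 of the 9 genes were past 2-fold in either direction, against 11.5% of all genes higher and 9.62% lower. Level-adjusted, 0 were as well, against 8.95% and 9.31%. Positive differences were found for 7 of the 9 genes as deposited, where 56.1% of all genes were positive, and for 4 of the 9 level-adjusted, where 51.2% were. The 9 genes had a median of 0.41 as deposited and -0.08 level-adjusted, beside 0.11 and 0.02 over all genes. The sign of the group median thus turned with the lowess adjustment, as did those of Th, Pnmt and Ddc (after quantile normalization those of Pnmt and Ddc turned and that of Th did not, at 0.0783), whereas Dbh, Gch1, Qdpr and Pts were positive and Maoa and Maob negative under each scaling.

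**Figure D3:**
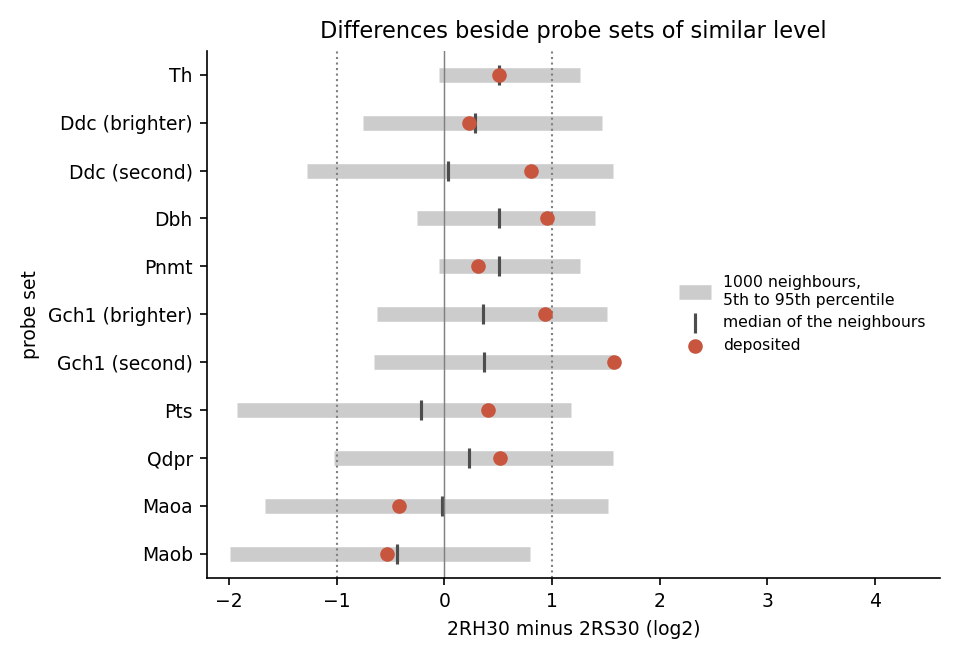
Deposited value in 2RH30 minus that in 2RS30 (horizontal axis, log2) of each probe set (red points), over the 5th to 95th percentile range (grey bars) and the median (ticks) of the deposited differences of its 1000 neighbours in mean level. Th falls on the median of its neighbours, Pnmt under it at percentile 29.8, and the second Gch1 probe set at the upper end of its bar, at percentile 95; dotted lines mark 2-fold.

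Other genes of the same biochemistry were read from lists chosen with earlier results of these data known, again with 1 probe set per gene. Of 5 listed tetrahydrobiopterin genes 2 were measured, and neither was past 2-fold. Gchfr, the feedback regulator of GTP cyclohydrolase, read 5.59 in 2RS30 against 6.49 in 2RH30, a difference of 0.90 (level-adjusted 0.72). Pcbd2, a dehydratase of cofactor recycling, differed by 0.84 (level-adjusted 0.64), but its second probe set by -0.98 (level-adjusted -1.07), so it gives no settled direction. Gchfr thus lay on the same side as Gch1, the enzyme it regulates, whose probe sets differed by 0.93 and 1.58.

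Of 11 listed genes for other breakdown and clearance, 10 were measured, and 2 were higher and 0 lower by 2-fold or more, beside 11.5% and 9.62% of all genes. Level-adjusted the counts were the same, beside 8.95% and 9.31%. Both genes past 2-fold were aldehyde dehydrogenases, enzymes that oxidise aldehydes such as those that monoamine oxidases produce. Aldh2, the mitochondrial form, read 6.68 in 2RS30 against 8.06 in 2RH30, a difference of 1.38 (level-adjusted 1.001). Aldh3a2, a fatty aldehyde dehydrogenase, read 4.56 in 2RS30 against 5.77 in 2RH30, a difference of 1.21 (level-adjusted 1.26). Slc6a2, the norepinephrine transporter that takes released amine back up, was the lowest that was not dim. It read 6.68 in 2RS30 against 6.07 in 2RH30 and differed by -0.60 (level-adjusted -0.82). The median of the list was 0.51, and 0.12 level-adjusted, with 6 genes above 0 and 4 below as deposited.

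Of 12 listed genes that supply the cofactors copper, ascorbate, pyridoxal phosphate, S-adenosylmethionine and flavin, 9 were measured, with a median of 0.44 (level-adjusted 0.02). Of these, 1 was higher and 1 lower by 2-fold or more, shares near those of all genes. Atox1, the chaperone that delivers copper to the secretory pathway, where Dbh takes it up, read 6.09 in 2RS30 against 7.95 in 2RH30, a difference of 1.85 (level-adjusted 1.53). Mat2b, a regulatory subunit of the synthase of S-adenosylmethionine, the methyl donor for Pnmt, read 7.24 in 2RS30 against 5.99 in 2RH30, a difference of -1.25 (level-adjusted -1.51). Atox1 and Mat2b have 1 probe set each, and both exceeded the probe set SD of their level.

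Markers show which cells these pools held. All 7 measured chromaffin cell markers had readings above at least 62.7% of probe sets in 2RS30 and 69.9% in 2RH30, so the labelled tissue had its defining markers. As for Th, their values were higher in 2RH30 for 7 of 7 markers, where 56.1% of all genes were higher. None of the 7 was dim, and 62.0% of all probe sets that were not dim were higher. Level-adjusted, 6 of 7 were higher, where 51.2% of all genes were, and Phox2a was at -0.18. The deposited differences ran from 0.08 for Phox2a, a transcription factor of the lineage, to 1.18 for Gata3, another one. Their median was 0.44 (level-adjusted 0.09). Gata3 was the only one past 2-fold, at 0.71 level-adjusted, and its second probe set was at -0.47 (level-adjusted -0.70). The 6 measured markers of the adrenal cortex, which surrounds the medulla, were brighter, above at least 99.3% of the probe sets on both arrays. Their median level was 10.98 in 2RS30 and 11.63 in 2RH30, against 6.92 and 7.33 for the chromaffin cell markers. The cortex markers differed by 0.48 for Cyp11b1 to 0.80 for Cyp11a1, both enzymes of steroid synthesis, with a median of 0.65, and of 0.06 level-adjusted. Cortical RNA was therefore present in both pools, and medulla and cortex markers had level-adjusted medians near 0; the part of cell makeup in the enzyme values was not tested.

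By the median level of each list, the markers of other cells were dimmer than those of chromaffin cells. Single genes were not always so, and none of the 6 macrophage genes was dim. The macrophage gene C1qb read 7.95 in 2RH30, above the chromaffin cell marker Hand2 at 7.33. Of the 5 listed Schwann and sustentacular cell genes 3 were measured and 2 of these were dim, with differences from -0.18 to 0.41, and Sox10, a glial transcription factor, at 0.09 (level-adjusted 0.03). Of 5 endothelial genes 4 were measured, from -0.56 to 0.48, with the angiopoietin receptor Tek at 0.48 (level-adjusted 0.38) and Vwf at -0.52 (level-adjusted -0.75). The 6 macrophage genes spread more widely. The complement genes C1qa, C1qb and C1qc and the lysosomal Cd68 were higher by 2.71, 1.38, 1.33 and 1.60 (level-adjusted 3.04, 1.03, 1.06 and 1.61), whereas 2 of the 6 were lower. These were the receptor Csf1r, the lowest at -0.77 (level-adjusted -0.89), and the leukocyte phosphatase Ptprc at -0.71 (level-adjusted -0.79), named after its value was seen, with a dim second probe set at -2.13. C1qa read 3.06 in 2RS30, where 3.67 is the 5th percentile, which leaves the size of its difference uncertain. The part of these cells in the enzyme values was not tested.

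**Figure D4:**
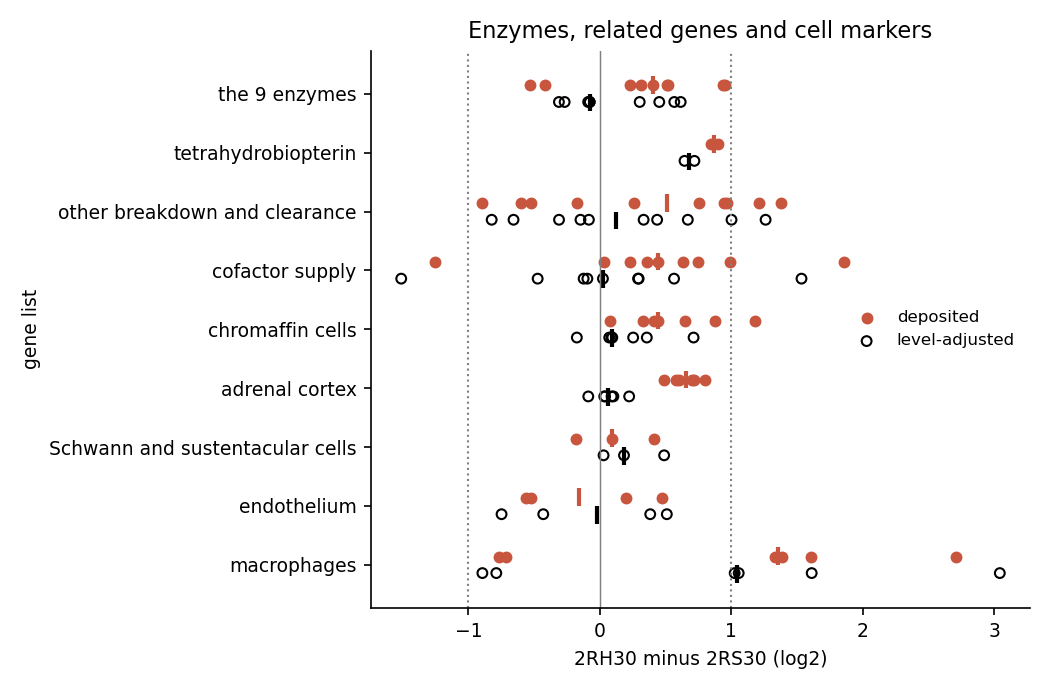
Value in 2RH30 minus that in 2RS30 (horizontal axis, log2) of each measured gene, as deposited (red) and level-adjusted (open), for the 9 catecholamine enzymes and for each list of related genes or cell markers (vertical axis). Short vertical lines are medians and dotted lines mark 2-fold; the medians of the enzymes, the chromaffin cells and the adrenal cortex lie at 0.41, 0.44 and 0.65 as deposited and at -0.08, 0.09 and 0.06 level-adjusted.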

How the data were processed

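RNA of 6 rats per group was pooled by the authors and hybridized to 1 Affymetrix Rat Genome array in each group. The deposited values are read as log2 signals from their range. The submitters' processing notes name Affymetrix Expression Console, without a version, while the methods name GCRMA for the study's own analysis and call the deposited data quantile-normalized, so the exact summarization was not settled. Of the probe sets, 57 array controls were set aside and 31042 kept. The platform annotation names 1 gene for 20826 of them, several for 436 and none for 9780; symbols were updated by gene number through RefSeq, for 20758 matches.

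No test was possible with 1 array in each group, and the number of arrays limits the precision. Differences are 2RH30 minus 2RS30 on the log2 scale. Genes were read from their brightest probe set, and all probe sets of the members are given. Level adjustment used lowess (fraction 0.3, 3 iterations). The 2-fold threshold is that of the study. The members and lists were chosen with earlier results of these data known. Genes of the 8 lists are named where they passed 2-fold and were not dim, or were the highest or lowest that was not dim. The steps were checked on simulated data with less noise than these arrays and planted differences larger than those of the members. That check covers the computing steps and not the sensitivity to differences of the size seen here. Alternatives were centring, quantile normalization, lowess, the mean over probe sets, and leaving out dim probe sets or those named _s_at, _x_at or _a_at. Thresholds of 1.5-fold and 3-fold, and other neighbour numbers and lowess fractions, were also used. Promoters came from the RefSeq table for GRCr8. Python 3.11.15, pandas 2.3.3, numpy 2.4.6, statsmodels 0.14.6 and matplotlib 3.10.9 were used.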

Additional observations from a re-analysis of the deposited data

How the results depend on the processing

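The median difference of the 9 genes, 0.41 as deposited, was 0.0783 after quantile normalization and -0.0773 after the lowess adjustment. It was 0.39 after centring and 0.51 with the mean over probe sets. Leaving out probe sets named _s_at, _x_at or _a_at gave 0.51 over 8 genes, without Maoa and with Ddc read from its other probe set. Leaving out dim probe sets gave 0.51 over 6 genes, without Pts and the 2 oxidases, which have the negative differences. These values lie within 1.5 times of 0.41, but the last 2 are not medians of the same genes. The count of genes 2-fold or more higher, 0 as read from the brighter probe set, was 1 with the mean over probe sets, which is Gch1 at 1.26, and 2 at 1.5-fold, Dbh and Gch1; it was 0 under the other alternatives, as was the count of genes lower under each of them. Quantile normalization left Th at 0.0783, Pnmt at -0.13 and Ddc at -0.0547, and kept the sign of the other members. No member with a mean level of 5 or more moved beyond the probe set SD pooled over its level band under these alternatives. For the dimmer Pts and Maob no such SD was computed, and quantile normalization took them to 0.62 and -0.068. Percentiles moved by up to 5.30 points with 500 or 2000 neighbours. With 100 neighbours, an alternative chosen after seeing the data, the percentile of Qdpr was 52.0 against 65.9, and others moved by under 10 points. Level-adjusted values moved by up to 0.0685 with lowess fractions of 0.2 and 0.5. No paired analysis was possible because there is a single array on either side. Without background signals, no limit can be stated for the dim Pts, Maoa and Maob.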
